A study of Mus musculus with 2 samples.

Results

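Fibroblast growth factors (FGFs) and their receptors were examined in skin wounds with and without the transcription factor PU.1. The genes described are the ligands Fgf23, Fgf1, Fgf2, Fgf7, Fgf9, Fgf10 and Fgf18 and the receptors Fgfr1, Fgfr2 and Fgfr3, 10 of the 24346 genes listed. They were selected by symbol, and Fgf23 was included because its measured level was higher without PU.1, so its values are a description and not evidence of a difference. Of the 10 genes, 7 are ligands and 3 are receptors, and all 10 reached 0.1 FPKM (fragments mapped, scaled to transcript length and to library depth) in 1 or both libraries.

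FGFs are signaling proteins that act through receptor tyrosine kinases on the cell surface. Most of them stay near the cell that secretes them, held by heparan sulfate, and in skin they carry signals between the dermis and the epidermis during hair growth and wound closure. A small endocrine group, to which Fgf23 belongs, binds heparan sulfate weakly, circulates in blood and needs a klotho co-receptor, and FGF23 made in bone is the hormone that lowers phosphate reabsorption in the kidney.

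The WT and PU.1-/- groups held 1 library each, made from dorsal skin wounds of C57BL/6J neonates, which the study describes as littermates. One-day-old pups received full-thickness incisional wounds, which the series' design text calls excisional, and the tissue was harvested 24 h later. PU.1, encoded by Spi1, is needed for the development of several blood cell lineages, and the PU.1-/- line lacks it in the whole animal, so no cell type was targeted. How many pups were used per genotype, and of which sex, is not given in the study's text.

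Depth, in units of 1e6 fragments, was estimated at 13.74 for WT and 15.79 for PU.1-/-. Spi1 was measured at 35.4 FPKM in WT against 1.46 FPKM in PU.1-/-, a WT over PU.1-/- ratio of 24.3. All 10 macrophage markers were at least 2-fold lower in PU.1-/-, and their sum was 749 FPKM in WT against 5.79 FPKM in PU.1-/-. The same call was made for 7 of 9 neutrophil, 7 of 8 mast cell and 5 of 6 T cell markers. The T cell markers were low, with sums of 4.66 FPKM in WT against 1.20 FPKM in PU.1-/-. Their calls rested on few reads, from about 3 and 0 for Cd2 to about 21 and 0 for Cd3d. Skin markers were present in both libraries, with 10 keratinocyte genes summing to 12340 and 13710 FPKM and 10 fibroblast genes to 2852 and 3311 FPKM. Xist, which coats the inactive X, was listed at 0 in WT and at 9.48 FPKM in PU.1-/-, and all 4 Y-linked genes examined were above 0 in WT and listed at 0 in PU.1-/-, so sex and genotype cannot be told apart in this pair of libraries.

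With 1 library per genotype there is no spread between animals, no test was possible and no p-values are given. Each ratio is PU.1-/- over WT, with values below 0.1 FPKM raised to 0.1, and a gene was called higher or lower at a ratio of at least 2. The interval beside a ratio is an exact binomial 95% interval on estimated read numbers and covers counting error only. In whole tissue, fewer cells of a type and less RNA per cell cannot be told apart.

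Fgf23 lies on chromosome 6 of GRCm38, the assembly of mm10, from 127072902 to 127082296 on the forward strand. The 250 bases before its start are shown because PU.1 is a DNA-binding protein of the ETS family, whose core motif is GGAA. The sequence is from RefSeq on GRCm38.p6, chr6:127072652-127072901, forward strand, with each GGAA and its reverse complement TTCC in capitals.
Fgf23 promoter: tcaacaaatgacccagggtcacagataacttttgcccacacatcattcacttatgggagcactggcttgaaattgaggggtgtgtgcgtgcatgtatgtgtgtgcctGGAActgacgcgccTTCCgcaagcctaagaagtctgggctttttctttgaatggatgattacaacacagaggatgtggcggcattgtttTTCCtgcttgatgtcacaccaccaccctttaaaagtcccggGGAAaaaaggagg
The window held 4 such matches, starting 143, 129, 54 and 13 bases before the gene. At least 1 match on either strand was present in 93.4% of 32851 promoter windows of the same length, so the core is common. The longer letters GAGGAAGT, a PU.1-type site, were not in the Fgf23 window nor in the windows available for Fgf2, Fgf7, Fgf9, Fgf10, Fgf18, Fgfr2 and Fgfr3, on either strand, and were in 2.44% of all windows. The E-box letters CANNTG, which muscle regulators such as myogenin bind, occurred 1 time, 246 bases before the start, and 66.2% of all windows held them. These are matches of letters, and binding was not measured here. Not every window lay before its gene. The Fgf9 window, from 58072436, and 1 of the Fgfr3 windows, from 33722056, began inside the gene spans given below. The Fgf2 window, from 37348403, ran across the start of its gene.

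Fgf23 was the 1 ligand of the 7 that passed the 2-fold threshold. Its level was 19.2 FPKM in WT against 85.5 FPKM in PU.1-/-. The ratio was 4.46 (interval 4.01 to 4.95), or 2.16 on the log2 scale, from about 426 and 2180 reads. In WT the gene stood beside Fgf7, at 0.966 times its level per length, and in PU.1-/- it stood at 3.44 times the level of Fgf7. Among the 7256 genes of at least 10 FPKM in 1 or both libraries, 6 had a larger ratio, and among the 13237 genes of at least 1 FPKM the share with a ratio at least as large was 0.196%. Because the gene was picked on this ratio, these ranks describe the choice.

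**Figure D1:**
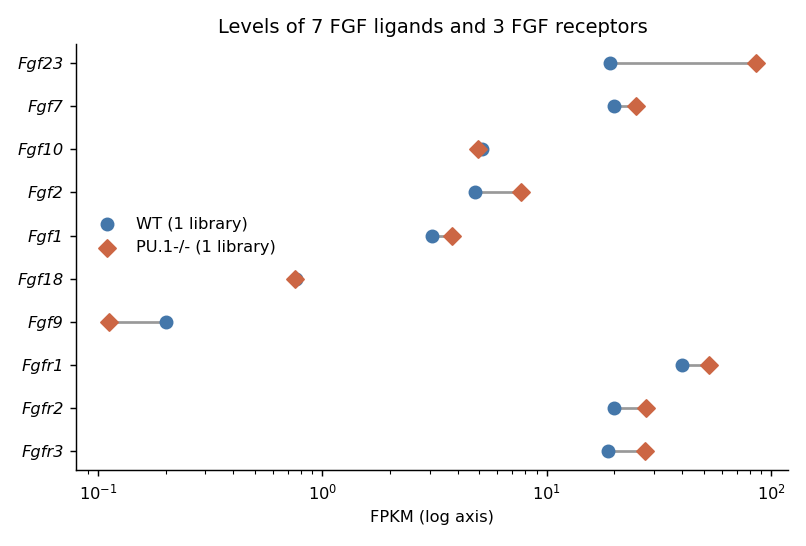
Level of each FGF ligand and receptor in the WT library (circles) and the PU.1-/- library (diamonds), in FPKM on a log axis, with 1 library per genotype and no error bars. Fgf23 moved from 19.2 to 85.5 FPKM, while for the other 9 genes the markers lie close together or, for Fgf9, at the low end of the scale.

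Of the 10 genes, 1 was called higher and none was called lower. Over the 16298 genes of at least 0.1 FPKM in 1 or both libraries, 565 (3.47%) were called higher and 1057 (6.49%) were called lower. Among the genes of at least 1 FPKM the shares were 1.71% higher and 4.45% lower. The single higher gene was Fgf23, chosen for it, so the other 9 genes gave 0 calls in either direction. The gene nearest to the threshold on its inner side was Fgf23, well beyond it with a ratio of 4.46, and the nearest on its outer side was Fgf2, with a ratio of 1.61. On the lower side the nearest gene was Fgf9, with a ratio of 0.554. The ratio was above 1 for 7 of the 10 genes, beside 49.0% of all 16298 genes. Their median log2 ratio was 0.36, or 0.32 without Fgf23, beside -0.01 over all 16298 genes. The median over the 10 genes was 0.19 and 0.13 after scaling to keratinocyte and fibroblast markers. These scalings shift the log2 ratios of all genes by -0.17 and -0.23, so the median over all genes moves down as well. The same holds for the scaled medians of the lists below.

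In the Fgf7 subfamily, Fgf7 and Fgf10 are made by mesenchymal cells and act on epithelial cells through the IIIb form of Fgfr2. Fgf7, keratinocyte growth factor, was measured at 19.9 FPKM in WT against 24.9 FPKM in PU.1-/-, a ratio of 1.25 (interval 1.13 to 1.38). Fgf10, a relative of Fgf7 with a role in the growth of epithelial buds, was at 5.12 FPKM in WT against 4.94 FPKM in PU.1-/-. Its ratio was 0.966 (interval 0.818 to 1.14), so that the counting interval spans 1. Fgf22, another abundant ligand of this subfamily, was at 17.5 and 18.5 FPKM, a ratio of 1.05 (interval 0.930 to 1.19). That ratio lay below 1 (0.935 and 0.899) when the libraries were scaled to keratinocyte or fibroblast markers. None of the 3 reached the threshold. Exons of Fgf10 share 123 bases with the antisense gene Gm16263, and exons of Fgf22 share 82 bases with Rnf126 on the opposite strand, at 58.1 and 53.0 FPKM.

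Fgf1 and Fgf2 lack a classical signal peptide and are released from cells by other routes, including injury. Fgf2, basic FGF, was at 4.79 FPKM in WT against 7.69 FPKM in PU.1-/-, a ratio of 1.61 (interval 1.42 to 1.82) from about 380 and 701 reads. A ratio at least as large was found in 4.06% of the genes of at least 1 FPKM. Its exons share 640 bases with Nudt6 on the opposite strand, which was at 9.36 and 10.8 FPKM. The sources used here do not give the strand setting of the counting, so reads of the pair cannot be told apart. Exons of Fgf2 also share 255 bases with Gm43439 on the same strand, which has no value here. Fgf1, acidic FGF, was at 3.08 FPKM in WT against 3.76 FPKM in PU.1-/-, with a ratio of 1.22 (interval 0.995 to 1.51). Both ratios were above 1, neither reached the 2-fold threshold, and the interval of Fgf1 includes 1.

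Fgf9 and Fgf18 were near the limit of detection. Fgf9, which in other tissues carries signals from epithelium to mesenchyme, was at 0.202 FPKM in WT against 0.112 FPKM in PU.1-/-, or about 11 and 7 reads. Its ratio of 0.554 has an interval from 0.182 to 1.57, so no difference was detectable at this depth, although the gene passed the 2-fold threshold on the lower side after scaling to keratinocyte or fibroblast markers. Fgf18, a ligand with roles in cartilage and in the resting hair follicle, was at 0.761 and 0.757 FPKM. The smallest whole read numbers that give these values are 7 and 8, and the ratio was 0.995 (interval 0.315 to 3.22), with a sign that changed with the scaling of the libraries (log2 from -0.24 to 0.04).

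**Figure D2:**
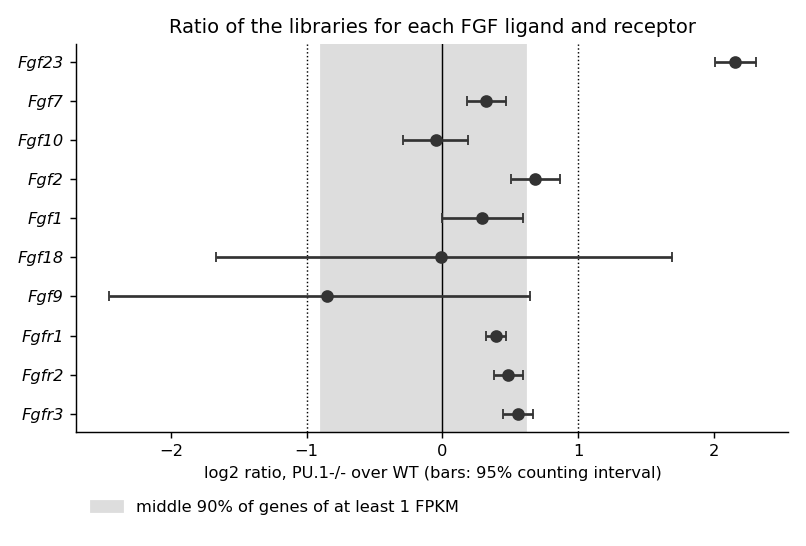
Log2 ratio of PU.1-/- over WT for the 10 genes, with horizontal bars for the 95% counting interval, dotted lines at 2-fold and a gray band from the 5th to the 95th percentile of the 13237 genes of at least 1 FPKM (ratios of 0.539 and 1.53). Fgf23 at 2.16 lies beyond the dotted line, Fgf2 at 0.68 lies just above the band, and the intervals of Fgf9 and Fgf18 are the widest.

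The 3 receptors were among the more abundant of the 10 genes, and each had a higher value in PU.1-/- that did not reach the threshold. Fgfr1, the main receptor of mesenchymal cells and a partner of klotho for FGF23, was at 40.1 FPKM in WT against 52.7 FPKM in PU.1-/-, a ratio of 1.31 (interval 1.25 to 1.38). Fgfr2, whose IIIb form receives Fgf7 and Fgf10 in epithelium, was at 19.8 and 27.7 FPKM, a ratio of 1.40 (interval 1.30 to 1.51). Fgfr3, which restrains growth in cartilage and is also made in epidermis, was at 18.7 and 27.4 FPKM, a ratio of 1.47 (interval 1.36 to 1.59). Ratios at least as large were found in 10.7%, 7.58% and 6.03% of the genes of at least 1 FPKM for Fgfr1, Fgfr2 and Fgfr3.

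Within each library the order of the receptors was the same. Fgfr1 stood at 2.03 times the level of Fgfr2 in WT and at 1.90 times in PU.1-/-, while Fgfr2 stood at 1.06 times the level of Fgfr3 in WT and 1.01 times in PU.1-/-. The values count all transcripts of a gene, so the IIIb and IIIc splice forms, which decide which ligands a receptor binds, cannot be told apart. Keratinocyte markers had a median log2 ratio of 0.17 (8 of 10 above a ratio of 1, none at 0) and fibroblast markers one of 0.23 (9 of 10, none at 0). Scaled to the keratinocyte markers, the log2 ratios of Fgfr1, Fgfr2 and Fgfr3 were 0.22, 0.31 and 0.38, and scaled to the fibroblast markers they were 0.16, 0.26 and 0.33, all above 0. In the GENCODE annotation, exons of Fgfr2 share 314 bases with Ctbp2 on the same strand, at 20.1 and 20.2 FPKM. Exons of Fgfr3 share 998 bases with an antisense gene that has no value here. Exons of Fgfr1 share 164 bases with the antisense gene Gm16159, at 2.50 and 2.61 FPKM.

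All 22 Fgf genes together summed to 76.5 FPKM in WT against 154.7 FPKM in PU.1-/-, a ratio of 2.02, or 1.02 on the log2 scale, which was 0.85 and 0.79 after scaling to keratinocyte and fibroblast markers. Of the difference of 78.2 FPKM, Fgf23 made up 66.3 FPKM, or 84.8%. Its share of the ligand transcripts was 25.1% in WT and 55.3% in PU.1-/-. The other 21 genes summed to 57.3 and 69.2 FPKM, a ratio of 1.21. The paracrine subfamily of Fgf3, Fgf7, Fgf10 and Fgf22 was the largest in WT, with 56.6% of the sum, and held 31.5% in PU.1-/-, although its own sum was 43.3 and 48.8 FPKM. The endocrine subfamily, almost all of it Fgf23, was the largest in PU.1-/-.

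**Figure D3:**
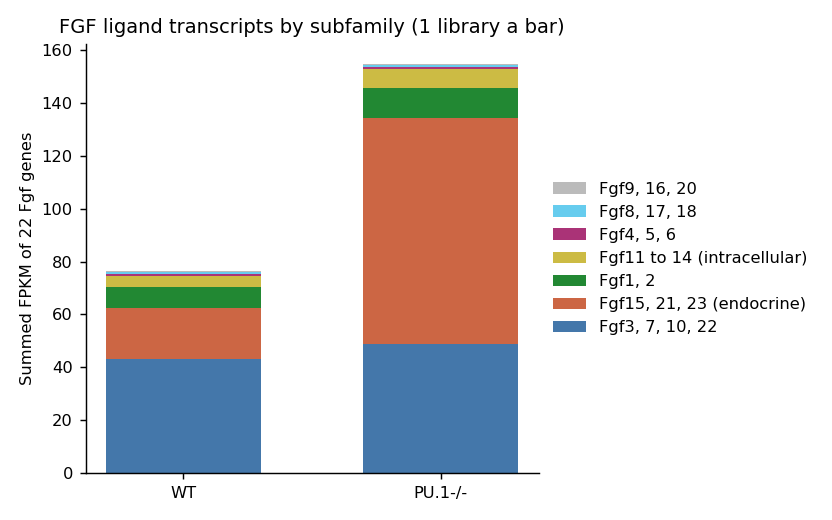
Summed FPKM of the 22 Fgf genes in each library, stacked by subfamily, with 1 library per bar and no error bars. The endocrine segment, almost all of it Fgf23, is 19.2 FPKM in WT against 85.7 FPKM in PU.1-/-, and the Fgf3, 7, 10 and 22 segment is 43.3 and 48.8 FPKM.

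Of the 15 ligands beyond the 7 described, 10 reached 0.1 FPKM, and none was called in either direction. Their median log2 ratio was 0.50, or 0.33 and 0.28 after scaling to keratinocyte and fibroblast markers, and 7 of the 10 were above a ratio of 1 before scaling. Most were low, since only 8 of the 22 Fgf genes reached 1 FPKM in 1 or both libraries. In WT and PU.1-/-, Fgf21 had about 0 and 2 reads, Fgf12 3 and 8, Fgf6 4 and 12, and Fgf16 4 and 4. Of the 10, only Fgf13 had a counting interval that excluded 1. Fgf13, an intracellular FGF that binds sodium channels rather than FGF receptors, was at 3.35 and 5.63 FPKM, a ratio of 1.68 (interval 1.32 to 2.14). Both other endocrine ligands were near 0, with Fgf15 at 0.0452 FPKM in WT and listed at 0 in PU.1-/-, and Fgf21 listed at 0 in WT and at 0.171 FPKM in PU.1-/-.

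Of the klotho co-receptors, 1 was listed at 0 and 1 was lower in PU.1-/-. Kl, which encodes klotho, the co-receptor that gives FGF23 high affinity for its receptors, was listed at 0 in both libraries. Klb, beta-klotho, the co-receptor of Fgf15 and Fgf21, was at 2.59 FPKM in WT against 1.28 FPKM in PU.1-/-, and was called lower with a ratio of 0.495 (interval 0.364 to 0.676). The call was lost when the libraries were scaled to the same FPKM sum, with a WT over PU.1-/- ratio of 1.96. Klb is known from liver and fat, and all 6 adipocyte markers had ratios below 1, with 3 called lower, none at 0, a median log2 ratio of -1.06 and sums of 3806 FPKM in WT against 3201 FPKM in PU.1-/-. Their part in the value of Klb was not tested. Fgfr4 was at 3.43 and 3.69 FPKM and Fgfrl1, a receptor-like protein without a kinase, at 19.2 and 17.8 FPKM.

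None of the genes listed as carrying, transmitting or answering FGF signals passed the 2-fold threshold. Of 19 genes of FGF carriers and heparan sulfate, 12 were above a ratio of 1, and the median log2 ratio was 0.19, which was -0.04 after scaling to fibroblast markers. Fgfbp1, a secreted protein that releases FGFs from the matrix, was at 202 and 287 FPKM, a ratio of 1.42 (interval 1.35 to 1.49), and Sdc1, the epithelial syndecan, was at 260 and 235 FPKM. Among 18 genes of receptor adaptors and the MAP kinase cascade none was called, and the ratios ran from 0.876 to 1.27. The most abundant of these were Mapk3, which encodes ERK1, at 98.6 and 90.3 FPKM, and Hras at 85.6 and 74.9 FPKM.

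Target and feedback genes report FGF activity in many tissues, although other growth factors also use them. Of 14 such genes 13 reached 0.1 FPKM, none was called, 9 were above a ratio of 1, and the median log2 ratio was 0.30, or 0.07 after scaling to fibroblast markers. Dusp6, a phosphatase that switches off ERK, had the largest ratio, with 42.9 FPKM in WT against 64.0 FPKM in PU.1-/- (1.49, interval 1.40 to 1.59). Spry1, a feedback inhibitor of the receptors, was at 32.4 and 44.4 FPKM, a ratio of 1.37 (interval 1.27 to 1.49). The ETS factors of this list, chosen after their values were seen, did not share a direction, with ratios of 0.814 for Etv1, 0.876 for Etv4 and 1.43 for Etv5.

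**Figure D4:**
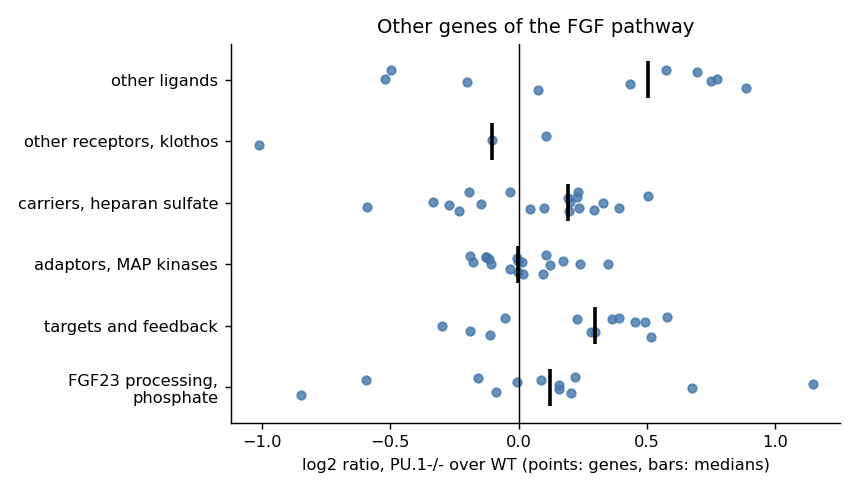
Log2 ratio of PU.1-/- over WT for each gene of 6 lists of the FGF pathway (points) with the median of each list (black bar), for genes of at least 0.1 FPKM. The 18 adaptor and MAP kinase genes lie closest to 0, the median of the target and feedback genes is 0.30, and the lowest receptor or klotho gene is Klb at -1.01.

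Genes that process FGF23 or handle phosphate were examined as the setting of Fgf23. Of 15 genes 12 reached 0.1 FPKM, 1 was called higher and none lower, with a median log2 ratio of 0.12 that was -0.05 and -0.11 after scaling to keratinocyte and fibroblast markers. Furin, a protease that cleaves FGF23, was at 104 and 97.6 FPKM, and Slc20a2, a phosphate transporter, was at 29.9 and 33.3 FPKM. The called gene was Dmp1, a matrix protein of osteocytes, on 1 read in WT and 9 in PU.1-/- (0.0282 and 0.221 FPKM), for which the ratio was 2.21 with the WT value raised to 0.1 FPKM and 7.84 (interval 1.09 to 343) without that floor. With the floor it was no longer called after scaling to keratinocyte or fibroblast markers, with ratios of 1.97 and 1.89. Galnt3 and Fam20c, chosen after their values were seen, encode the enzymes that protect FGF23 from cleavage or mark it for cleavage, and had ratios of 0.996 and 1.06.

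Bone markers were low beside Fgf23. The 10 bone genes summed to 16.9 FPKM in WT against 18.6 FPKM in PU.1-/-, and Alpl, which is also made in other tissues, held 15.8 FPKM of the PU.1-/- sum and most of the WT sum. Mepe and Bglap2 were listed at 0 in both libraries, Phex at 0 in WT and 0.0310 FPKM in PU.1-/-, and Bglap at 0.306 FPKM in WT and 0 in PU.1-/-. Sost, made by osteocytes, was at 0.155 and 0.507 FPKM. Of the 6 bone markers that reached 0.1 FPKM, 2 were called higher and 1 lower, and the median log2 ratio was -0.01. These calls rest on few reads, 1 and 9 for Dmp1, 4 and 15 for Sost, and about 1 and 0 for Bglap, the lower gene. After scaling to keratinocyte or fibroblast markers 1 gene, Sost, was called higher.

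Skeletal muscle markers had larger values in the library where Fgf23 was higher. All 10 had ratios above 1, from 1.56 to 3.01, of which 3 were called higher (Myh3, Myh8 and Myog), and their sum was 8875 FPKM in WT against 15130 FPKM in PU.1-/-, with none at 0. After scaling to keratinocyte or fibroblast markers all 10 ratios stayed above 1 and 1 gene, Myog, was called. The ratio of Fgf23 was above that of each of the 10 markers, and Fgf23 over Myog was 0.868 in WT and 1.28 in PU.1-/-. Because Fgf23 was picked for its rise, this order describes the choice. The part of muscle tissue in the level of Fgf23 was not tested.

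**Figure D5:**
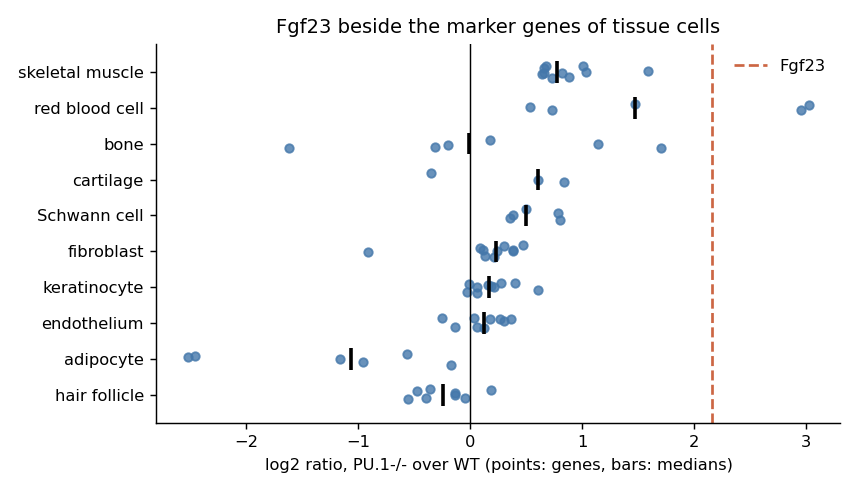
Log2 ratio of PU.1-/- over WT for marker genes of 10 cell types or tissues (points, genes of at least 0.1 FPKM, black bars for medians) with the value of Fgf23 as a dashed line at 2.16. Skeletal muscle markers lie between 0.65 and 1.59, and the points to the right of the dashed line are 2 of the 5 red blood cell markers.

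Red blood cell markers also had ratios above 1 for all 5 genes, with sums of 547 and 920 FPKM, 3 called higher and none at 0. The part of blood in the level of Fgf23 was not tested either.

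The genes nearest to Fgf23 were sought by the distance between log2 levels in the 2 libraries, over all listed genes. They were Myog, the muscle regulator myogenin, at 22.1 and 66.6 FPKM, then Apod, a lipid-binding secreted protein, at 32.1 and 87.4 FPKM. Next were Mybph, a myosin-binding protein of muscle, at 33.1 and 82.2 FPKM, Hbb-bs, a beta globin, at 18.4 and 150.0 FPKM, and Itgb1bp2, melusin of striated muscle, at 32.5 and 65.6 FPKM. Hbb-bs has near-identical copies, so its value is uncertain, and with 2 libraries the likeness covers 2 values a gene. The ratio of Itgb1bp2 was 2.02, or 1.80 and 1.73 after scaling to keratinocyte and fibroblast markers.

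None of the 4 nearest listed genes beside Fgf23 on chromosome 6 was called. Tigar, a regulator of glycolysis 2.82 kb after it, was at 4.66 and 5.12 FPKM, a ratio of 1.10 (interval 0.918 to 1.32), and Ccnd2, cyclin D2, 42.9 kb after it, was at 37.4 and 35.1 FPKM. On the other side Fgf6, a ligand of developing muscle 48.2 kb before it, was at 0.0707 and 0.185 FPKM from 4 and 12 reads. Its ratio was 1.84 with the floor and 2.61 (interval 0.792 to 11.1) without it, an interval that includes the ratio of Fgf23. D6Wsu163e, 97.2 kb before Fgf23, was at 5.93 and 5.35 FPKM.

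The other genes lie on other chromosomes of GRCm38. Fgf1 spans 38838672 to 38929470 of chromosome 18, Fgf2 spans 37348477 to 37410106 of chromosome 3, and Fgf7 spans 126034658 to 126091185 of chromosome 2. Fgf9 spans 58070671 to 58112854 of chromosome 14, Fgf10 spans 118714699 to 118792573 of chromosome 13, and Fgf18 spans 33116970 to 33147400 of chromosome 11. Fgfr1 spans 25518759 to 25575718 of chromosome 8, Fgfr2 spans 130162451 to 130266808 of chromosome 7, and Fgfr3 spans 33721724 to 33737068 of chromosome 5. No 2 of the 10 genes share a chromosome.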

How the data were processed

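Bulk mRNA of 2 skin wound libraries, 1 WT and 1 PU.1-/-, was analysed. Stranded mRNA libraries were made by the authors, who deposited FPKM values per gene symbol, calculated with Cuffnorm on mm10. The submitters' processing notes name TopHat2 2.1.1, Bowtie2 2.2.8, SAMtools 0.1.18 and Cuffdiff 2.2.1. The annotation is not given in the sources used here. FPKM divides fragments by transcript length and depth, so levels of genes can be compared per length.

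Ratios were taken from the FPKM values, with a floor of 0.1 FPKM and a call at 2-fold. Read numbers were estimated from the steps in which low FPKM values move. Equal read numbers gave a WT over PU.1-/- ratio of 1.149 (459 genes), and transcripts of at least 600 nt, with an assumed fragment length of 200 nt, gave the depth. Lengths were those of the longest GENCODE transcript linked to RefSeq (23016 genes), so an interval is too narrow where the authors' transcript was shorter. Where both values matched a pair of whole read numbers up to 20, the smallest such pair was taken. It was multiplied by the largest whole number that kept its sum within the estimate from length and depth, or else left as it was. Gene positions and promoters were from RefSeq on GRCm38.p6, and promoters of Fgf1 and Fgfr1 were not analysed here. Shared exon bases were taken from all GENCODE transcripts of a gene, which can reach beyond the RefSeq spans given. The functions were tested on simulated data.

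The genes and lists were chosen with earlier results of these data known. The genes named are the 10 described, genes of the FGF lists that were called or were the 2 highest of their list, the 5 genes nearest to Fgf23, 2 neighbors on each side of it, and Spi1. Markers, low or undetected ligands and genes said to be chosen after their values were seen are named beyond this rule. Alternatives covered the floor, a pseudocount, 4 scalings, the threshold, a 1 FPKM filter and the ligands summed. Calculations used scipy 1.17.1, numpy 2.4.6 and pandas 2.3.3 under Python 3.11.15, and figures matplotlib 3.10.9.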

Additional observations from a re-analysis of the deposited data

How the results depend on the processing

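Fgf23 stayed above 2-fold under every floor, pseudocount and scaling tried, with a log2 ratio from 1.93 to 2.2. The lowest values were 1.99 after scaling to keratinocyte markers and 1.93 after scaling to fibroblast markers, which shift all log2 ratios by -0.17 and -0.23. At a threshold of 1.5-fold, 2 of the 10 genes were higher (Fgf23 and Fgf2) and 1 was lower (Fgf9). Over the 16298 genes of at least 0.1 FPKM, the 5th and 95th percentiles of the ratio were 0.409 and 1.76. At least 5% of all genes thus passed 1.5-fold in each direction, and their exact share was not counted. Scaling to keratinocyte or fibroblast markers also gave 1 lower gene at 2-fold in each case, Fgf9, on about 11 and 7 reads. The share of all genes called lower after these scalings was not counted. The log2 ratio of the ligand sum, 1.02 as reported, was 0.92 with a floor of 1 FPKM, 0.84 with a pseudocount of 1 FPKM, 0.85 and 0.79 after scaling to keratinocyte and fibroblast markers, and 0.27 without Fgf23, so that its 2-fold call was lost in each. With a pseudocount of 0.1 FPKM the log2 ratio of the ligand sum rounded to 1.0, the threshold itself. Of 72 values of the other 9 genes under the alternatives, 63 lay inside the counting interval of the reported ratio. The 9 outside it were smaller ratios of Fgf2, Fgf7, Fgfr1, Fgfr2 and Fgfr3 after scaling to the marker lists. Depth limits Fgf9 and Fgf18. No library could be left out, since each genotype has 1. No paired analysis was possible because each genotype has 1 library and no test was run.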
